A study of Homo sapiens with 8 samples.

Results

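The transcripts described here encode the cyclins, kinases and kinase inhibitors that govern the G1 phase of the cell cycle in MDA-MB-157 cells at low and high glucose. The 10 members were taken by gene symbol from the deposited expression table, and all 10 were among its 21059 genes: the D-type cyclins CCND1, CCND2 and CCND3, the E-type cyclins CCNE1 and CCNE2, the kinases CDK4 and CDK6, and the inhibitors CDKN1A, CDKN1B and CDKN2C. MDA-MB-157 is an established human breast cancer line that is negative for the estrogen receptor. Cells were conditioned in low glucose and then kept in flasks without serum for 48 hours at 5 mM glucose (low glucose, 4 libraries, LG1 to LG4) or 25 mM glucose (high glucose, 4 libraries, HG1 to HG4), and the comparison models hyperglycemia. All 8 libraries came from this 1 line, the labels name no osmotic control for any of them, nor do they say whether the 4 replicates of a group were separate experiments, so the p-values measure the spread between these libraries, which may be technical.

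In G1, D-type cyclins bind CDK4 or CDK6 and E-type cyclins bind CDK2, and the active kinases phosphorylate the retinoblastoma protein, which releases E2F factors that switch on genes of DNA replication. INK4 inhibitors such as p18 (CDKN2C) block CDK4 and CDK6, while the Cip/Kip inhibitors p21 (CDKN1A) and p27 (CDKN1B) restrain cyclin E with CDK2 and also bind complexes of cyclin D. Much of this control acts on the proteins, through phosphorylation and degradation, and transcript levels do not show it.

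At high glucose 6 of the 10 transcripts were higher and 1 was lower at an adjusted p under 0.05 (limma on log2(CPM + 1), where CPM is counts per 1000000 reads, with Benjamini-Hochberg adjustment over all genes tested). CDKN1A rose most, by 1.21 ± 0.09 (SE, n = 4 and 4) on the log2 scale, followed by CCNE2 (0.75 ± 0.04), CCND3 (0.66 ± 0.09), CCND1 (0.55 ± 0.03), CCNE1 (0.43 ± 0.04) and CDKN1B (0.38 ± 0.05). CDK6 fell by 0.38 ± 0.11, CDK4 and CDKN2C did not pass the test, and CCND2 was at or under the detection floor throughout. The 4 expressed cyclins and the 2 Cip/Kip inhibitors rose, and neither kinase did.

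The response to glucose was broad, which sets the background for these counts. Of all genes tested, 46.8% passed the same threshold, 22.0% higher and 24.8% lower at high glucose. Among the 11297 genes with a mean of at least 5 CPM, the range that holds all members but CCND2, 66.9% passed, 33.6% higher and 33.3% lower. The 7 members called were 70% of all 10 and 77.8% of the 9 in that range, and with so few genes a share this near the background is not a result about the members. In the same 7 members the groups did not overlap, which was also so for 44.5% of all genes and 65.0% of those of at least 5 CPM. The median log2 change over the 10 members was 0.40, beside -0.01 over all genes tested and -0.01 over genes of at least 5 CPM. A log2 change at least as far from 0 as that of CDKN1A was found for 3.32% of the genes of at least 5 CPM.

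Depth, estimated from the table, was 10389651 to 12104244 reads in the low glucose libraries and 9721649 to 12482542 reads in the high glucose libraries. A count of 3 reads, taken as the floor, was worth 0.212 to 0.267 CPM. The line markers VIM (2856 to 4116 CPM over the 8 libraries), KRT8 (76.4 to 138 CPM) and KRT18 (156 to 238 CPM) were expressed, and all 3 fell at high glucose. ESR1, the estrogen receptor, stayed at 0 to 0.17 CPM, in keeping with the label, and PGR at 4.33 to 5.95 CPM. Of the markers of other cell types, the leukocyte gene PTPRC lay at 0 to 0.178 CPM and the endothelial gene PECAM1 rose from 0.911 to 1.24 CPM at low glucose to 1.51 to 2.84 CPM at high glucose (log2 change 0.63, adjusted p = 0.00775, limma); the part of other cells in the results was not tested. HG1 stood apart from the other high glucose libraries: its difference from their mean correlated with transcript length (Spearman rho = -0.65 over 11223 genes, which are not independent), against 0.25 to 0.47 for HG2 to HG4 and -0.13 to 0.06 at low glucose. Results that rest on HG1 are therefore given with and without it.

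Promoters of 3 members are printed to show the letters searched in their place, for CDKN1A and CCNE1, which rose, and for CDK4, which did not pass the test. Each is the 250 bases before the start site listed by RefSeq on GRCh38.p14, 5′ to 3′ on the strand of the gene. In all 3 the capitals mark each GC box (GGGCGG on either strand, the letters bound by Sp1-type factors) and each E-box (CACGTG, the letters bound by MYC and related factors). The CDKN1A start lies inside the span of the gene, downstream of its outermost annotated start.
CDKN1A, chr6:36678464-36678713, plus strand: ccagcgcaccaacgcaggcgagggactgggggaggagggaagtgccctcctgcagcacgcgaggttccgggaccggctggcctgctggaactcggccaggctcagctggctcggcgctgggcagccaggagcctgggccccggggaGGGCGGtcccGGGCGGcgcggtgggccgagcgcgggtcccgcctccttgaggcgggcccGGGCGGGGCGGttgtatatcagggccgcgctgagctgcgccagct
CCNE1, chr19:29811741-29811990, plus strand: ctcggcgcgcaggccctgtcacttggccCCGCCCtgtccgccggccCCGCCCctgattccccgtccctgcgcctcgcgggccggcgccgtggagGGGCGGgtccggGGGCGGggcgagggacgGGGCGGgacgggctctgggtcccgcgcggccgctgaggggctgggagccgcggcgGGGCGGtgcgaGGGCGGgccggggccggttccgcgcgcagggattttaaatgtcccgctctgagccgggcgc
CDK4, chr12:57752311-57752560, minus strand: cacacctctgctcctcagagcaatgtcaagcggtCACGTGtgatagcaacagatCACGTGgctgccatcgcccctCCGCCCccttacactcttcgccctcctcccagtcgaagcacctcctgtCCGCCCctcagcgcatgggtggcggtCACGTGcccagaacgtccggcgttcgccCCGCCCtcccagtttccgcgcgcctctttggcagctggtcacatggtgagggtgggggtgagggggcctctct

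The promoter table had entries for 7 of the 10 members, in 12 windows from 250 bases before to 50 after a start. The CDKN1A window held 4 GC boxes, of which the last 2 overlap, and that of CCNE1 held 7. The CDK4 window held 3 GC boxes and 3 E-boxes, beginning 216, 196 and 101 bases before the start. A GC box was present in 44.95% of all 35116 promoter windows and an E-box in 7.26%. CDKN1B had 1 GC box and no E-box, and CDK6 had 3 GC boxes and 1 E-box in the first of its 2 windows and neither in the second. The 3 windows of CCND3, which rose, held 5, 4 and 0 GC boxes and no E-box. The 3 windows of CDKN2C, which did not pass the test, held 0, 6 and 1 GC boxes and 1, 0 and 1 E-boxes. GC boxes were thus found both in members that rose and in members that did not. None of the 12 windows held the AP-1 letters TGACTCA (4.95% of all windows), the CRE letters TGACGTCA (1.85%) or the E2F letters TTTCCCGC (1.63%) and TTTGGCGC (0.65%). The FOXO letters GTAAACA (3.42% of all windows) occurred once, in a window of CCND3. Each search covered both strands, and a match or its absence describes the letters of these windows and not the binding of a factor.

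CDKN1A (ENSG00000124762.13, chromosome 6, 36676463 to 36687332 on GRCh38.p14) encodes p21, a Cip/Kip inhibitor best known for holding cells in G1 under stress. It was at 36.3, 31.9, 34.0 and 31.2 CPM in LG1 to LG4 and at 93.2, 78.1, 71.8 and 71.3 CPM in HG1 to HG4. Every high glucose library lay far above every low glucose library, with HG1 the highest. The mean rose from 33.4 ± 2.3 to 78.6 ± 10.2 CPM (SD, n = 4 each), a fold of 2.31 on the log2(CPM + 1) scale (95% interval of the log2 change 0.98 to 1.43, adjusted p = 5.4e-05, limma). Without HG1 the log2 change was 1.12 (adjusted p = 3.54e-05). Behind these values were 385 to 436 read equivalents in each low glucose library and 802 to 1320 in each high glucose library.

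CDKN1B (ENSG00000111276.11, chromosome 12, 12717368 to 12722369) encodes p27, the inhibitor that accumulates in resting cells, mostly through control of its translation and degradation. It was at 24.7, 24.8, 24.8 and 27.3 CPM at low glucose and 33.2, 33.2, 31.6 and 35.5 CPM at high glucose, again without overlap. The rise, from 25.4 ± 1.29 to 33.4 ± 1.59 CPM, was smaller than that of CDKN1A (log2 change 0.38, 95% interval 0.27 to 0.49, adjusted p = 0.000484, limma), and the 95% intervals of the 2 changes did not meet. The ratio of CDKN1A to CDKN1B per kilobase of transcript went from 1.5 ± 0.158 to 2.69 ± 0.376 (SD, n = 4), from 1.30 to 1.68 in the low glucose libraries and from 2.29 to 3.19 in the high glucose libraries.

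CDKN2C (ENSG00000123080.11, chromosome 1, 50960745 to 50974634), the INK4 inhibitor p18, did not pass the test. Its values were 28.3, 30.7, 29.0 and 28.0 CPM at low glucose and 29.9, 23.6, 28.5 and 27.3 CPM at high glucose, and the groups overlapped. The log2 change was -0.09 with a 95% interval of -0.26 to 0.08 (adjusted p = 0.38, limma), and 0.02 with the length trend removed library by library. A rise of the size estimated for CDKN1B (0.38) lies outside this interval, and small falls lie within it. An unnamed gene on the opposite strand (ENSG00000290102) shares 617 exon bases with CDKN2C, and reads of the pair could not be separated here if the strand was not used in counting.

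**Figure D1:**
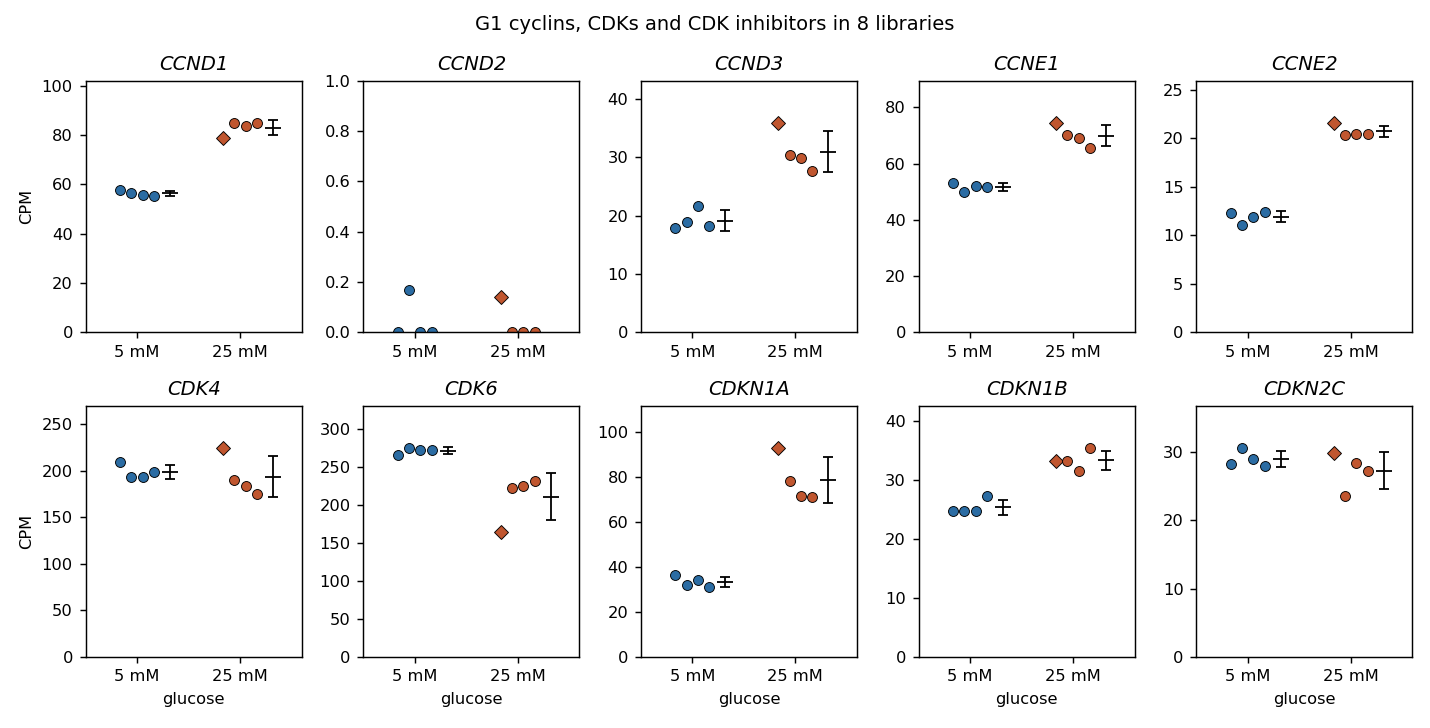
CPM (linear axis from 0) of each of the 10 members in the 4 libraries at 5 mM glucose (blue) and the 4 at 25 mM (orange), with the mean ± SD beside the points except for CCND2; HG1 is drawn as a diamond. CDKN1A sits at 31.2 to 36.3 CPM at low and 71.3 to 93.2 CPM at high glucose, and CDK4 and CDKN2C overlap between the groups.

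CCND1 (ENSG00000110092.3, chromosome 11, 69641156 to 69654474) encodes cyclin D1, the D-type cyclin best known in breast cancer and one induced by growth factor signals. It was at 57.8, 56.6, 55.9 and 55.3 CPM at low glucose and at 78.9, 84.8, 83.8 and 85.0 CPM at high glucose. The groups were tight and well apart, and HG1 was the lowest of its group. The mean went from 56.4 ± 1.05 to 83.1 ± 2.84 CPM, a log2 change of 0.55 (95% interval 0.48 to 0.62, adjusted p = 8.67e-06, limma).

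CCND3 (ENSG00000112576.12, chromosome 6, 41934933 to 42050035), which encodes cyclin D3, was at 17.8, 18.9, 21.7 and 18.2 CPM at low glucose. At high glucose it was at 35.9, 30.4, 29.9 and 27.6 CPM, all above the low glucose libraries, with HG1 the highest. The log2 change was 0.66 (95% interval 0.44 to 0.88, adjusted p = 0.000927, limma), and 0.59 without HG1 (adjusted p = 0.00102).

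CCND2 (ENSG00000118971.8, chromosome 12, 4273762 to 4305353), which encodes cyclin D2, was close to undetected. It had 2 read equivalents in LG2 (0.166 CPM) and 2 in HG1 (0.141 CPM) and 0 in the other 6 libraries, where 0 reads allow up to 0.219 to 0.267 CPM. Both groups were at or under the floor, so no fold is given. At this depth the D-type pool consisted of CCND1 and CCND3. Per kilobase of transcript, CCND1 made up 58.5% ± 2.34 of it at low glucose and 56.3% ± 3.59 at high glucose (SD, n = 4), a share that overlapped between the groups. The summed D-type level rose from 22.8 ± 0.792 to 34.9 ± 1.14 CPM per kilobase, with 22.0 to 23.9 in the low and 33.6 to 36.4 in the high glucose libraries.

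CCNE1 (ENSG00000105173.14, chromosome 19, 29811991 to 29824312) encodes cyclin E1, which activates CDK2 late in G1 and is itself an E2F target. It was at 53, 49.8, 52.1 and 51.7 CPM at low glucose and at 74.5, 70.3, 69.2 and 65.5 CPM at high glucose. The groups did not overlap, and the mean rose from 51.6 ± 1.36 to 69.9 ± 3.69 CPM (log2 change 0.43, 95% interval 0.33 to 0.52, adjusted p = 0.000137, limma).

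CCNE2 (ENSG00000175305.17, chromosome 8, 94880224 to 94896693), which encodes the paralog cyclin E2, had the largest rise of the cyclins. Its values were 12.3, 11.1, 11.9 and 12.4 CPM at low glucose and 21.6, 20.4, 20.5 and 20.5 CPM at high glucose, a narrow band in each group. The mean went from 11.9 ± 0.577 to 20.7 ± 0.571 CPM, a log2 change of 0.75 (95% interval 0.65 to 0.85, adjusted p = 1.26e-05, limma), and its interval lay above that of CCNE1. INTS8, on the opposite strand, shares 1629 exon bases with CCNE2 and fell from 67.3 ± 3.17 to 49.3 ± 2.93 CPM (log2 change -0.44, adjusted p = 0.000394, limma). Reads of CCNE2 and INTS8 could not be separated here if the strand was not used in counting. The part of INTS8 in the CCNE2 values was not tested. Per kilobase, CCNE1 made up 85.1% to 86.0% of the E-type pool in the low glucose libraries and 81.4% to 82.5% in the high glucose libraries. CCNE1 thus remained the main E-type transcript, with a share lower by a few percentage points in each high glucose library.

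CDK4 (ENSG00000135446.17, chromosome 12, 57747727 to 57752310), a catalytic partner of the D-type cyclins, was the most abundant member per kilobase. It was at 209, 193, 193 and 199 CPM at low glucose and at 225, 190, 184 and 175 CPM at high glucose. HG1 was the highest and HG4 the lowest of all 8 libraries, and the groups overlapped. The log2 change was -0.04 (95% interval -0.23 to 0.14, adjusted p = 0.7, limma). It was -0.12 (adjusted p = 0.0552) without HG1, 0.0019 without HG4 and 0.0057 with the length trend removed, so its sign depends on these choices. CDK4 shares 9.43% of its 31-base words with other genes, and TSPAN31 on the opposite strand shares 1369 exon bases with it and fell from 33.0 ± 2.12 to 27.9 ± 1.17 CPM (log2 change -0.24, adjusted p = 0.0075, limma). Reads of CDK4 and TSPAN31 likewise could not be separated here if the strand was not used in counting.

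CDK6 (ENSG00000105810.9, chromosome 7, 92604921 to 92836573) encodes the other kinase partner of the D-type cyclins and was the only member that fell. It was at 266, 276, 273 and 273 CPM at low glucose and at 165, 223, 225 and 232 CPM at high glucose. All 4 high glucose libraries lay below the low glucose libraries, with HG1 far below the rest. The log2 change was -0.38 (95% interval -0.63 to -0.12, adjusted p = 0.0233, limma). Without HG1 it was -0.26 (adjusted p = 0.000102), and with the length trend removed -0.36 (adjusted p = 8.43e-06). The call was lost without LG2 (adjusted p = 0.0567), LG3 (adjusted p = 0.0544) or LG4 (adjusted p = 0.0544), with log2 changes of -0.37, -0.38 and -0.38. The canonical transcript of CDK6 is 11663 bases long, the longest of the members, and the part of transcript length in its value in HG1 was not tested beyond these fits.

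**Figure D2:**
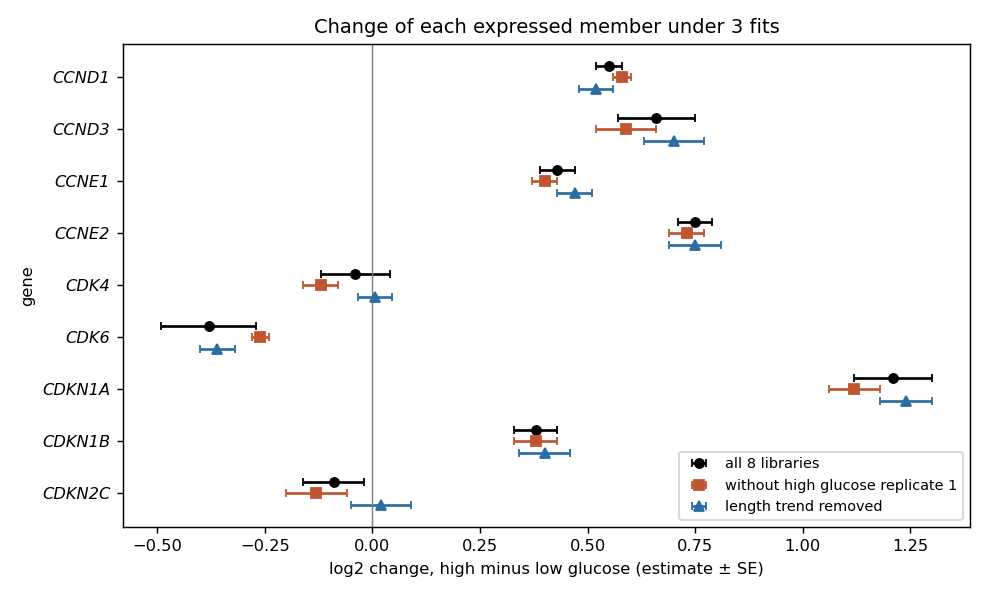
Log2 change (high minus low glucose, estimate ± SE) of the 9 expressed members in 3 fits: all 8 libraries (circles), without HG1 (squares) and after removal of the length trend from every library (triangles). The 6 members that rose stay between 0.38 and 1.24, CDK6 lies at -0.38, -0.26 and -0.36, and CDK4 and CDKN2C lie around 0.

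The deviation of HG1 from the other high glucose libraries followed length among the members as well. On the log2 scale it was -0.46 for CDK6 and -0.10 for CCND1 (4238 bases), the longest transcripts among the 9 expressed members. It was 0.34 for CDKN1A (2117 bases), 0.30 for CDK4 (1865 bases), 0.29 for CCND3 (2026 bases) and 0.18 for CDKN2C (995 bases). The remaining members were closer to 0, with 0.12 for CCNE1 (1954 bases), 0.07 for CCNE2 (2674 bases) and -0.01 for CDKN1B (2411 bases). Spearman's rho of this deviation with length over the 9 expressed members was -0.73 in HG1, given as a description, beside 0.63, 0.20 and 0.60 in HG2, HG3 and HG4 and -0.05 to 0.38 at low glucose. HG1 was again part of the reference for HG2, HG3 and HG4. The 6 rises and the fall of CDK6 had the same direction in the fit without HG1 and in the fit with the trend removed.

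**Figure D3:**
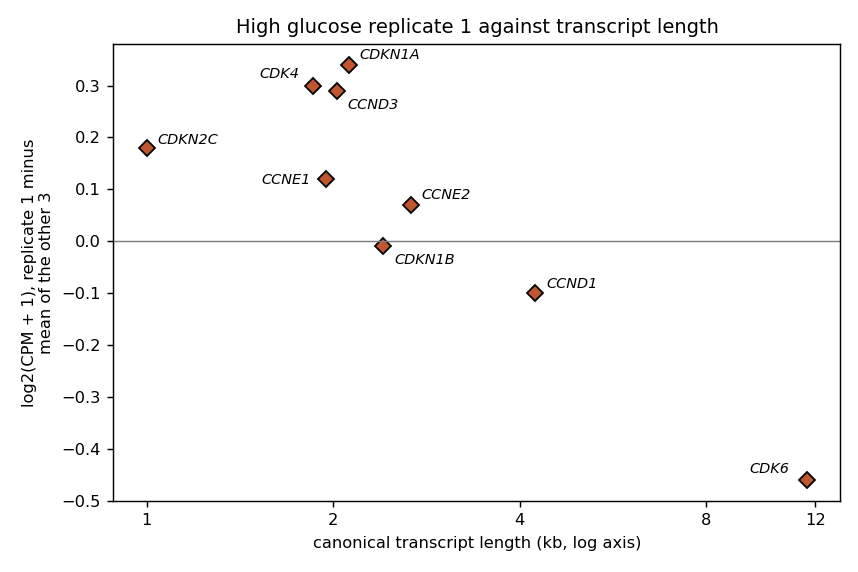
Deviation of HG1 from the mean of HG2 to HG4 on the log2(CPM + 1) scale (vertical axis) against the length of the canonical transcript in kilobases (horizontal log axis) for the 9 expressed members. CDK6, the longest, sits at -0.46 and the members of 1.86 to 2.12 kb lie between 0.12 and 0.34. CDKN1B (2.41 kb) and CCNE2 (2.67 kb) lie at -0.01 and 0.07.

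Levels of different members were compared per kilobase of canonical transcript. At low glucose the order was CDK4 (106 ± 4.19 CPM per kilobase, SD, n = 4), CDKN2C (29.1 ± 1.24), CCNE1 (26.4 ± 0.696), CDK6 (23.3 ± 0.354), CDKN1A (15.8 ± 1.09), CCND1 (13.3 ± 0.248), CDKN1B (10.5 ± 0.533), CCND3 (9.45 ± 0.854) and CCNE2 (4.47 ± 0.216), with CCND2 last. Of the neighbours in this order, CDKN1B and CCND3 overlapped in range. At high glucose CDKN1A stood second at 37.1 ± 4.83 CPM per kilobase and overlapped CCNE1 (35.8 ± 1.89), ahead of CDKN2C (27.5 ± 2.72). CCND1 (19.6 ± 0.67), CDK6 (18.1 ± 2.66), CCND3 (15.3 ± 1.75) and CDKN1B (13.8 ± 0.659) followed, each overlapping the next, and then CCNE2 (7.76 ± 0.214). CDK4 stayed first, at 104 ± 11.7 CPM per kilobase.

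The makeup of the pool of 3 inhibitors among the members shifted most. CDKN1A made up 26.8% to 30.8% of the 3 inhibitors per kilobase in the low glucose libraries and 44.4% to 50.1% in the high glucose libraries, while CDKN2C went from 50.9% to 54.9% down to 31.9% to 37.8%. The share of CDKN1B was 19.0% ± 1.27 and 17.7% ± 1.61. The sum of these 3 inhibitors rose from 55.4 ± 0.87 to 78.4 ± 6.34 CPM per kilobase. Its ratio to the summed cyclins was 1.03 ± 0.0284 at low and 0.999 ± 0.0511 at high glucose, and the groups overlapped. Within this ratio, CDKN1A relative to the cyclins went from 0.294 ± 0.0167 to 0.472 ± 0.0427. The sum leaves out 4 inhibitors outside the members, of which 1 was higher and 2 were lower at high glucose. Among these 4, CDKN2B fell from 124 to 76.5 CPM and CDKN2A was at 73.7 and 78.8 CPM. The ratio therefore describes the 3 members alone, and a ratio over all inhibitors was not tested. D-type cyclins relative to CDK4 and CDK6 went from 0.176 ± 0.00999 to 0.287 ± 0.0115, without overlap. The ratio of CDK4 to CDK6 was 4.37 to 4.92 at low glucose and 8.52, 5.32, 5.11 and 4.72 in HG1 to HG4, so it overlapped, with HG1 far above the rest.

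**Figure D4:**
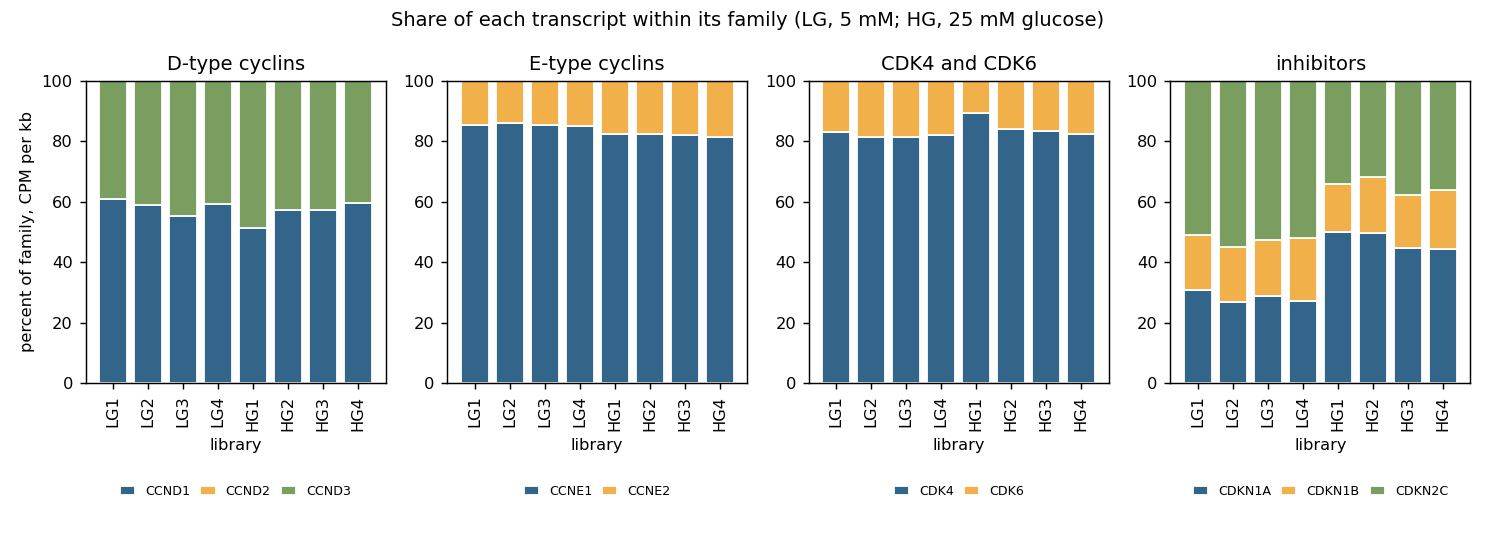
Percent of each family's summed CPM per kilobase (stacked bars from 0 to 100) contributed by each transcript in the 8 libraries. CDKN1A grows from 26.8% to 30.8% of the inhibitors among the members at low glucose to 44.4% to 50.1% at high glucose. The D-type shares overlap, and CCND2 is too low to be seen.

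Of the INK4 and Cip/Kip inhibitors outside the 10 members, 1 of 4 was higher and 2 were lower, with a median log2 change of -0.05. The share called, 75.0%, was near the 66.9% of genes of at least 5 CPM, so the count is no result about this list. CDKN2D, the INK4 inhibitor p19, rose from 10.7 ± 0.464 to 26.9 ± 1.77 CPM (log2 change 1.25, adjusted p = 4.5e-06, limma), a rise as large as that of CDKN1A. CDKN2B, the TGF-beta-responsive p15, fell from 124 ± 1.91 to 76.5 ± 2.73 CPM (log2 change -0.69, adjusted p = 3.49e-06), and CDKN1C, or p57, fell from 8.44 ± 0.357 to 7.27 ± 0.311 CPM (-0.19, adjusted p = 0.0206). CDKN2A, which encodes p16 and ARF, was at 73.7 and 78.8 CPM (log2 change 0.08, adjusted p = 0.503). Both inhibitor families therefore held transcripts that rose and transcripts that fell. Among the 6 FOXO and SMAD factors known to act on CDKN1B or CDKN2B, 5 were higher and 1 did not pass, with a median log2 change of 0.22. The share called, 83.3%, stands beside 66.9% of genes of at least 5 CPM and was not tested against it. FOXO1 went from 8.32 ± 1.0 to 14.4 ± 2.06 CPM (log2 change 0.72), FOXO4 from 6.28 ± 0.746 to 8.67 ± 0.792 CPM (0.41) and SMAD2 from 63.1 ± 1.17 to 76.5 ± 2.58 CPM (0.27). The rises of SMAD4 (0.16) and SMAD3 (0.12) were smaller. FOXO3, which did not pass, was at 52.7 ± 3.0 and 51.3 ± 3.74 CPM (-0.04).

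Of 8 genes of the CDK2 arm and its activators, 6 were higher and none was lower. CDK2, the kinase partner of cyclin E, rose from 35.7 ± 2.93 to 70.7 ± 5.53 CPM (log2 change 0.97, adjusted p = 5.74e-05, limma). CDC25A, the phosphatase that removes the inhibitory phosphate from CDK2, rose from 5.15 ± 1.1 to 12.5 ± 1.27 CPM (1.15), and CCNH, the cyclin of the CDK-activating kinase, from 25.2 ± 0.603 to 42.5 ± 3.34 CPM (0.73). The median log2 change of this list was 0.41, and 75.0% of it was called, near the 66.9% of genes of at least 5 CPM.

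Of 13 pocket proteins, E2F factors and DP partners, 9 were higher and 2 were lower, with a median log2 change of 0.37. The share called, 84.6%, stands beside 66.9% of genes of at least 5 CPM and was not tested against it. E2F1 rose from 27.3 ± 0.778 to 55.5 ± 5.48 CPM (log2 change 0.99, adjusted p = 2.97e-05, limma), E2F3 from 38.0 ± 2.24 to 55.3 ± 1.8 CPM (0.53), and E2F8, a repressor that acts later in the cycle, from 4.24 ± 0.19 to 10.4 ± 0.908 CPM (1.12). RBL2, the p130 pocket protein that acts with E2F4 in resting cells, fell from 30.1 ± 1.65 to 15.9 ± 1.99 CPM (-0.89, adjusted p = 0.000189), and TFDP2 fell from 45.9 ± 1.22 to 35.1 ± 1.9 CPM (-0.38, adjusted p = 0.000287). Among the 7 MuvB and DREAM genes, which repress cell cycle genes in quiescence or, with MYBL2, activate them, 5 were higher and none was lower, 71.4% called, with a median log2 change of 0.60. That share was near the 66.9% of genes of at least 5 CPM, so the count is no result about this list. LIN52 went from 28.6 ± 2.35 to 77.3 ± 2.01 CPM (1.41), MYBL2 from 68.1 ± 1.7 to 123 ± 8.89 CPM (0.84) and DYRK1A from 117 ± 4.85 to 179 ± 9.33 CPM (0.60).

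Of 15 subunits and adaptors of ubiquitin ligases that act on G1 cyclins, p21 or p27, 6 were higher and 3 lower. The share called, 60.0%, was under the 66.9% of genes of at least 5 CPM, and the median log2 change was 0.17, so the count is no result about this list. CUL4A (122 ± 3.95 to 176 ± 3.81 CPM) and DTL (34.3 ± 0.689 to 57.4 ± 3.1 CPM), which act together on p21, rose by 0.52 and 0.73 on the log2 scale, and CUL3 rose by 0.53. SKP2, which targets p27, fell from 42.2 ± 1.61 to 31.7 ± 0.789 CPM (log2 change -0.40, adjusted p = 6.6e-05, limma). FBXO4, linked to cyclin D1, fell from 16.5 ± 1.84 to 8.77 ± 0.538 CPM (-0.83), and RNF123, linked to p27, from 21.4 ± 1.73 to 15.1 ± 1.29 CPM (-0.48). Also higher were CKS1B (47.9 ± 2.24 to 107 ± 16.5 CPM, log2 change 1.14), SKP1 (0.43) and CUL1 (0.30), so genes of the list went both ways.

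**Figure D5:**
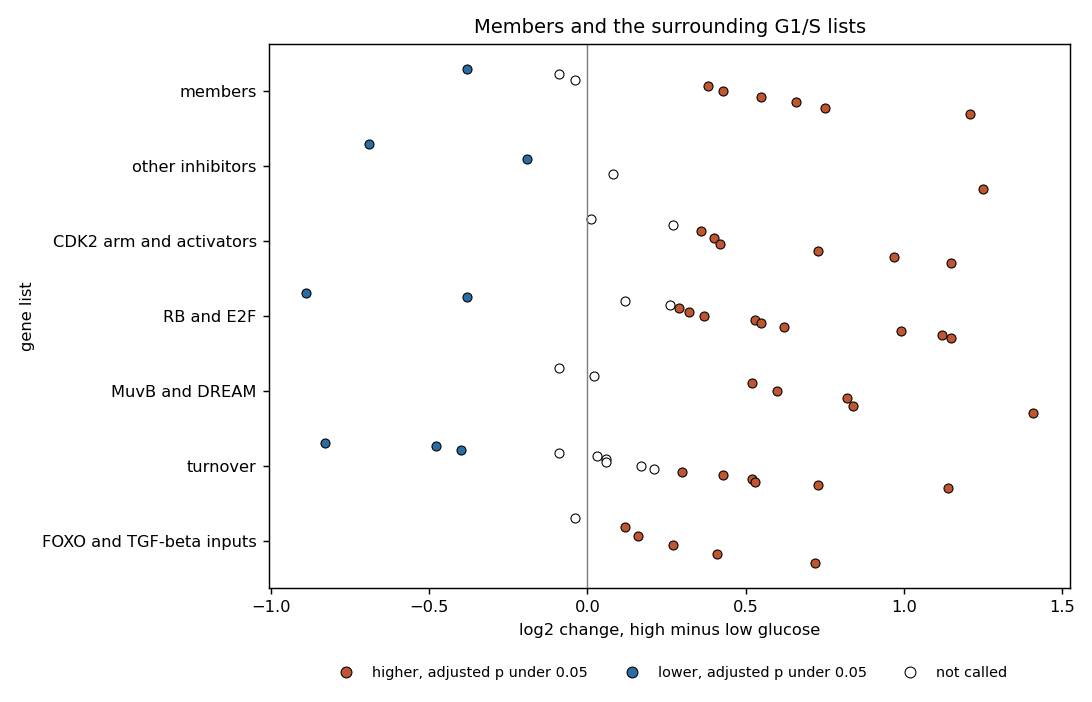
Log2 change at high glucose (horizontal axis) of the 9 expressed members and of each gene in the 6 surrounding lists, filled where the adjusted p was under 0.05 (orange higher, blue lower) and open otherwise. The RB and E2F list has 9 genes higher and 2 lower, and the turnover list has 6 higher and 3 lower.

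The genes whose values over the 8 libraries were most like those of CDKN1A, out of 11297 of at least 5 CPM, were TMEM222 (Pearson r = 0.9985), TCP1 (0.998) and TAF7 (0.998). They rose from 32.4 to 64.6, from 142 to 224 and from 280 to 392 CPM. Most like CDK6 were AKAP13 (0.9977), ERBIN (0.9969) and ANKRD50 (0.9968), whose canonical transcripts are 13327, 8544 and 8798 bases long and which were, like CDK6, lowest in HG1. These correlations are descriptions over 8 libraries that fall into 2 groups. In these bulk samples a change in the share of cells in a given cycle phase and a change of transcript per cell cannot be told apart, and no library measures the phase distribution. In a separate assay of BrdU incorporation, which included MDA-MB-157, the paper reports no increase of proliferation at high glucose. How that assay relates to these transcripts was not tested.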

How the data were processed

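RNA from MDA-MB-157 cells was sequenced on an Illumina HiSeq in 8 libraries, grouped by the labels. The authors deposited 1 table of CPM scaled by trimmed mean of M values (edgeR). The submitters' processing notes name hg38, whereas the study's methods, written first for tumors, describe stranded libraries, TopHat on hg19 with Ensembl 70 and a filter on low CPM, so it is open which build underlies the table. The counting tool is not given in the sources used here. Of 21077 lines, 18 pseudoautosomal Y copies identical to the X copies were left out.

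Values were analysed as log2(CPM + 1), which understates the change of low genes, with limma 3.58.1 in R 4.3.3 (lmFit and trended eBayes, 2-sided, without covariates). P-values were adjusted by Benjamini-Hochberg over all 21059 genes, including 856 at 0 everywhere, with a threshold of 0.05. Reads were estimated from the most common low value of each library, the worth of 1 read. The underlying counts were fractional, so no count model was fitted, and the floors include counting error alone, because no molecular identifiers mark independent molecules. Positions are from RefSeq on GRCh38.p14. Lengths and exon overlaps are from canonical transcripts of GENCODE release 44 mapped to GRCh37, and 20730 genes had a length.

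The members and lists were chosen with earlier results of these data known. Of their 88 genes, 87 were in the table and CD3E did not match. Named genes were the members, in each list at most the 3 genes with the smallest adjusted p in each direction, and the 3 genes most correlated with the member of the largest rise and of the largest fall. CDKN2A, FOXO3, SMAD3, SMAD4, CKS1B, SKP1, CUL1, CCNA1, the receptors, PTPRC and the opposite-strand genes are outside this rule. Of these, CDKN2A, FOXO3, SMAD3, SMAD4, CKS1B, SKP1, CUL1, CCNA1 and LTO1 were named after their values were seen. The results of 1 list are not reported here. Alternatives were a pseudocount of 0.1, only genes of at least 5 CPM, median-of-ratios and equal-total scaling, a replicate block, removal of a length spline (5 degrees of freedom), each library left out, and shares without division by length. The steps were tested on simulated data.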

Additional observations from a re-analysis of the deposited data

Results flagged for a closer look

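Each group of 4 libraries was examined for a library far from the others, by the gap of the highest or lowest value to its neighbour divided by the range of the group, against Dixon's 95% critical value. Of 22 groups examined, 6 passed. Chance would give about 1.1 for independent groups, but these groups share the same libraries, so the 2 numbers are not compared. CDK6 at high glucose had a ratio of 0.869, from HG1 at 165 CPM against 223 to 232 CPM in the other 3 libraries, and it is the result that this library touches most. CCNE2 at high glucose had a ratio of 0.874, again from HG1, at 21.6 CPM against 20.4 to 20.5 CPM. CDKN1B at low glucose had a ratio of 0.951, from LG4 at 27.3 CPM against 24.7 to 24.8 CPM, still under every high glucose library. CCND2 had ratios of 1.0 at low and 1.0 at high glucose. In each group 1 library held 2 read equivalents and the others 0, which fixes the ratio. The estimated reads in the table at low glucose had a ratio of 0.864, from LG4 with 12104244 reads. The part of depth or transcript length in these values was not tested here beyond the fits given for HG1.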

How the results depend on the processing

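The 6 members that rose did so past the threshold in all 14 alternatives, with log2 changes of 1.12 to 1.25 for CDKN1A, 0.72 to 0.79 for CCNE2, 0.59 to 0.72 for CCND3, 0.52 to 0.58 for CCND1, 0.40 to 0.47 for CCNE1 and 0.35 to 0.42 for CDKN1B. CDK6 was lower in each, at -0.43 to -0.26, and that range also spans the fits that leave out 1 library, in which the number of members called lower was 0 to 1, with 0 without LG2, LG3 or LG4. The cause of this was not tested, and fewer samples entered those fits. CDK4 reversed to 0.0057 (adjusted p = 0.922) with the length trend removed, and leaving out 1 library gave -0.12 to 0.0019 (adjusted p = 1.0 without HG4). CDKN2C reversed to 0.02 (adjusted p = 0.828) with the length trend removed. Between 8120 and 10577 genes were called, out of unlike totals. The lowest count came from the fit of only the 11297 genes of at least 5 CPM. The highest came with the length trend removed, which covered the 20730 genes with a length. The other fits covered all 21059 genes, with 9849 called in the fit of all libraries without changes, so these counts are not compared as shares.

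No shared effect of replicate number was seen, since same-numbered libraries deviated from their group means with correlations of 0.07, -0.03, 0.01 and -0.04. These correlations cannot show whether the libraries were paired by design. With the replicate block 8921 genes and 7 members were called, and no member changed its call.

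Without division by length, CCND1 made up 74.6% of the D-type cyclins at low and 72.9% at high glucose. On the same scale CCNE1 made up 81.2% and 77.1% of the E-type cyclins, and CDKN1A 38.0% and 56.3% of the inhibitors among the members. CDK6 made up 57.8% and 52.1% of CDK4 and CDK6, so CDK6 is the larger of the kinase pair by reads and the smaller per kilobase. The RB and E2F list had 9 to 10 genes higher and 2 lower in the alternatives that kept all 8 libraries. Its counts with a library left out, HG1 among them, were not examined. At this depth CCND2 cannot be compared.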
